A study of Mus musculus with 46 samples.

Results

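AgRP neurons of the arcuate nucleus (ARC) drive feeding, and the adipose hormone leptin lowers their activity. Among the open chromatin regions of these neurons, 1301 gained accessibility when fasted mice were given leptin although fasting itself had moved them little, and these leptin-opened peaks are described here. They were picked from a table of log2 CPM (CPM, counts scaled to a common library size) that held 90196 ATAC-seq peaks, 74904 of them with a mean of at least 1 over the 6 libraries of the 3 hunger states. A peak was kept when its mean with leptin exceeded its mean in fasted mice by at least 0.8, when its lower leptin library lay above its higher fasted library, and when its means in fasted and fed mice differed by less than 0.5. The members were thus chosen by their measured values in these 6 libraries, and those values are given as a description with no test. The other 73603 peaks with a mean of at least 1 serve as the comparison, beside 969 peaks that met the mirrored rule and lost accessibility with leptin.

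Leptin acts through the long form of its receptor, Lepr, whose associated kinase JAK2 phosphorylates the transcription factor STAT3. Dimers of STAT proteins bind a short palindrome with TTC on one side and GAA on the other, and Socs3, one of the genes they induce, feeds back to inhibit the receptor. An ATAC-seq peak marks DNA that a transposase can reach, such as a promoter or an enhancer, and enhancers can lie far from the gene they act on.

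All mice were male, 6 to 11 weeks old, on a C57BL/6J background. They carried the NuTRAP cassette, which labels the ribosomes and nuclei of Cre-expressing cells with GFP, together with AgRP-IRES-Cre or, for POMC neurons, POMC-IRES-Cre. The label follows every cell that has expressed Cre, so it marks a line of cells and not their present state. Fed mice ate ad libitum and received vehicle, fasted mice went without food overnight and received vehicle, and leptin mice were fasted overnight and injected with leptin, so fasting is shared by the leptin group and its fasted controls. ATAC-seq covered sorted AgRP nuclei of each state (2 libraries each) and, separately, sorted AgRP(+) and AgRP(-) nuclei of untreated fed mice (2 libraries each). RNA bound to tagged ribosomes (TRAP) covered 3 fed, 4 fasted and 4 leptin libraries of AgRP neurons and 2 of each state of POMC neurons. Each library came from 4 pooled mice, and the pools are separate samples per the study's methods, except that AgRP(+) and AgRP(-) nuclei were sorted from shared pools. CUT&RUN, which maps where a protein sits on chromatin, gave 1 peak list for IRF3, from the IRF3-2D model in which AgRP neurons make a constitutively active IRF3, and 1 for CTCF, each from 1 sample of AgRP nuclei.

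Libraries held 8263234 to 17190963 counts in peaks for the 3 states, 8685497 to 11177208 for the AgRP(+) and AgRP(-) nuclei, and 25581041 to 54511107 counts in genes for the RNA of AgRP neurons. Start-site peaks of 5 AgRP neuron markers (Agrp, Npy, Corin, Otp, Acvr1c) summed to 298 to 360 CPM in the state libraries, 254 to 262 CPM in AgRP(+) nuclei and 116 to 123 CPM in AgRP(-) nuclei, which matches the labelled cell type. Slc17a6, the glutamate transporter that AgRP neurons lack, held 0.349 to 1.08 CPM at its start site in the state libraries. It held 3.58 to 3.89 CPM in AgRP(+) and 15.4 to 15.9 CPM in AgRP(-) nuclei. Markers of other cells were not absent. In sorted nuclei, POMC neuron start sites summed to 8.05 to 9.63 CPM in AgRP(+) and 4.38 to 4.41 CPM in AgRP(-) nuclei. Endothelial ones summed to 4.38 to 6.11 and 1.61 to 1.92 CPM. Astrocyte, oligodendrocyte and oligodendrocyte precursor start sites were lower in AgRP(+) than in AgRP(-) nuclei. Microglial start sites summed to 1.82 to 2.16 CPM in fed, 8.19 to 8.40 in fasted and 6.22 to 6.64 in leptin libraries, endothelial ones to 5.32 to 8.59, 16.3 to 17.2 and 18 to 20.5 CPM, and astrocyte ones to 50.8 to 54.3, 60.5 to 68.0 and 60.6 to 75.1 CPM. Oligodendrocyte start sites went the other way (42.7 to 43.7, 33.9 to 38.2 and 32.7 to 37.6 CPM), and those of tanycytes, oligodendrocyte precursors and POMC neurons were no higher in fasted than in fed libraries beyond their ranges. Between fasted and leptin libraries, tanycyte start sites rose without overlap, from 81.6 to 84.1 CPM to 90.7 to 91.2 CPM, with fed libraries at 81.7 to 92.5 CPM. Endothelial ones rose without overlap as well, and microglial ones fell. The part of all these cells in the choice of the peaks was not tested. In the RNA of AgRP neurons the library numbered 4 of each state stood apart, with 21504 to 28194 CPM of astrocyte markers against 2786 to 4479 CPM in the other 8 libraries, and the RNA counts are given with and without these 3. AgRP neuron markers summed there to 1449 to 2159 CPM in fed, 2629 to 6179 in fasted and 1885 to 6210 CPM in leptin libraries. In the fed libraries astrocyte markers were above them, at 3883 to 21504 CPM. Slc17a6 RNA was 193 to 245 CPM in fed, 142 to 282 in fasted and 166 to 253 in leptin libraries. Transcripts of other cells were thus present in all RNA libraries of AgRP neurons. In such bulk libraries fewer cells of a type and less signal per cell cannot be told apart.

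Sequences at the centres of 6 leptin-opened peaks with a STAT motif are shown because the share of peaks with that motif differed widely between the leptin-opened and the other peaks. The first 4 lie nearest to genes whose RNA rose with leptin, and the other 2 are among the 10 peaks with the largest gain. Each is the central 300 bases of the peak on the plus strand of mm10 (GRCm38), from the RefSeq genome, in lower case with the motif TTCNNNGAA in capitals.
Socs3 peak, chr11:117962415-117962714: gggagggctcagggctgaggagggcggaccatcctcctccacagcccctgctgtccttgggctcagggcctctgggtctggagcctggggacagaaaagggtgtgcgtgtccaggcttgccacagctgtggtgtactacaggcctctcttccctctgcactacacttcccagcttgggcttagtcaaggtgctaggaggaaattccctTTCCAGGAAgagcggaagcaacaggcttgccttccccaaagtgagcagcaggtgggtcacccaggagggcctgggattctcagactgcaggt
Tnfrsf11b peak, chr15:54262208-54262507: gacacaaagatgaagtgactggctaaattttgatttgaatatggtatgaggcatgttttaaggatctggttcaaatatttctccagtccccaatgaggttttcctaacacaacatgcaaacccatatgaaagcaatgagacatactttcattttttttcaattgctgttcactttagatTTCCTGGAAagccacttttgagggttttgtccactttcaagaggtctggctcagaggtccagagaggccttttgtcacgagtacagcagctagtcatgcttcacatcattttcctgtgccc
Arhgap28 peak, chr17:67979099-67979398: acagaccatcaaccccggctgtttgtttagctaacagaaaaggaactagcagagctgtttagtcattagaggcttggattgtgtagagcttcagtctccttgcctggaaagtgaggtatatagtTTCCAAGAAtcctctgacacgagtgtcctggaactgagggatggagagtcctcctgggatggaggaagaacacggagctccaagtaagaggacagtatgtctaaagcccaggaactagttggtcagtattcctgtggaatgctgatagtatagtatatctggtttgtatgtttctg
Steap1 peak, chr5:5719756-5720055: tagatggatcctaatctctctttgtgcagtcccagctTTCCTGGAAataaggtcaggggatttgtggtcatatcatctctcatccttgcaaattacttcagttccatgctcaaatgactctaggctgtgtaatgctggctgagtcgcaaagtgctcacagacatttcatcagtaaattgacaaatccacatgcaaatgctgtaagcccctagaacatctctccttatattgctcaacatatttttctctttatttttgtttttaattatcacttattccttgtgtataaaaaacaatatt
Eml5 peak, chr12:98790634-98790933: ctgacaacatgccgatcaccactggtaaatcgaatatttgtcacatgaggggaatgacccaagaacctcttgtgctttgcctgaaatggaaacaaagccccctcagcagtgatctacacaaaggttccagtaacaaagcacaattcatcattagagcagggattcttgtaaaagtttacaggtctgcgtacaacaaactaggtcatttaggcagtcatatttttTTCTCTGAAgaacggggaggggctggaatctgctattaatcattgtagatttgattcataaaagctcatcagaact
Sv2b peak, chr7:75291983-75292282: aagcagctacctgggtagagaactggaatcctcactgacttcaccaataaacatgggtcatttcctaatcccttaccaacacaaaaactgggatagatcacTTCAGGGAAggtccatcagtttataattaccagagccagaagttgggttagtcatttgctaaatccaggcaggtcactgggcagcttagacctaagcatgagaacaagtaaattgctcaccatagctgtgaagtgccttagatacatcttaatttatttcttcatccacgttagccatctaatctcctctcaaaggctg

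A further sequence comes from the leptin-opened peak with the strongest IRF3 CUT&RUN signal, nearest to Vps50, which also overlapped a CTCF CUT&RUN peak. Its capitals mark an IRF motif (TTTCNNTTTC, the reverse complement of GAAANNGAAA).
Vps50 peak, chr6:3620546-3620845: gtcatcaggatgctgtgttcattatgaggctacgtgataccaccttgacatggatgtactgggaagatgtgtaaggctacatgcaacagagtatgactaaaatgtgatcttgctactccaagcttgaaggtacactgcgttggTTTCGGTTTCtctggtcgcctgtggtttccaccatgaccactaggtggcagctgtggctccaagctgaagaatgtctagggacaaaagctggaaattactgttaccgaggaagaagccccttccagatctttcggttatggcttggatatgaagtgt

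The Socs3 peak (chr11:117962344-117962786) lay in intergenic DNA 6621 bases from the start site. Its log2 CPM was 1.34 and 1.82 in the fed libraries, 1.49 and 1.55 in the fasted and 2.97 and 2.94 in the leptin libraries. Both leptin libraries thus stood above all 4 others, which were mixed. Its motif, TTCCAGGAA, is also a strict STAT motif (TTCCNGGAA). At the Steap1 peak, whose gene encodes a membrane metalloreductase, the fed libraries held 1.34 and 1.22, the fasted 0.56 and 2.48, and the leptin libraries 3.05 and 3.42. At the Arhgap28 peak, in an intron, they held 2.44 and 0.82, 1.16 and 1.72, and 3.83 and 3.75. The 2 fed or fasted libraries of such a peak could differ by more than 1 log2 unit, while the leptin libraries stayed close to each other.

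The gains were moderate for most of the 1301 peaks. Mean leptin minus mean fasted log2 CPM had a median of 1.13 with quartiles of 0.935 and 1.46, and the largest value was 3.05. The gain reached 1 in 847 peaks, 1.5 in 298 and 2 in 81. Mean fasted minus mean fed had a median of -0.01. The median of leptin minus fed was 1.22, and both leptin libraries lay above both fed libraries in 1241 peaks (95.4%). The rule used the fed libraries as well, in the mean over the 6 libraries and in the limit of 0.5, so that leptin minus fed could not fall below 0.3 and these values only describe the choice. The peaks were not strong ones: the mean over the 6 libraries was below 2 log2 CPM in 658 of them (50.6%). At the limit of 0.8, the members just inside lay nearest to Scrn1, Rasgrf1 and Larp4b with differences of 0.80, and those just outside, which met every other criterion, lay nearest to Cradd, Id4 and Fam216b with differences of 0.795.

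**Figure D1:**
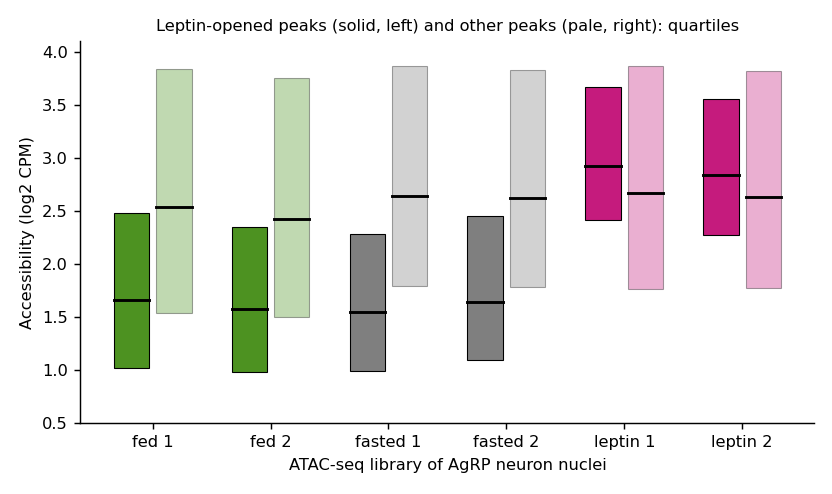
Log2 CPM of ATAC-seq in the 6 libraries of AgRP nuclei, as boxes from the lower to the upper quartile with the median as a line, for the 1301 leptin-opened peaks (solid) and the other 73603 peaks (pale). The leptin-opened peaks have medians of 1.55 to 1.66 in the fed and fasted libraries and 2.84 and 2.92 with leptin, which is what they were chosen for, and start from a lower level than the other peaks.

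The choice of peaks depended on single libraries. A count model on the same contrast (edgeR) called 615 of the 1301 higher with leptin at a false discovery rate (FDR) under 0.05 and a log2 fold change over 0.5, against 2.41% of all 102198 peaks tested, and nothing is read from this because the rule used the contrast. When 1 of the 6 libraries was left out, 1206 to 1670 peaks met the rule, and 61.7% to 80.5% of the 1301 were among them. The lowest share came without fasted replicate 1. Rescaling the counts by TMM kept 94.7% of them and rescaling by library size 94.5%.

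The 10 largest gains lay nearest to Eml5, Gse1, Smg1, Sv2b, Epha4, Tnfaip8, Ggt6, Tmem207, Nrcam and Znrf1, and 7 of these 10 peaks held a STAT motif. In the Eml5 peak (chr12:98790491-98791077), in an intron of a gene for a microtubule-associated protein, the fed libraries held 1.02 and -0.37 log2 CPM, the fasted 0.74 and -0.52, and the leptin libraries 3.31 and 3.01. The Gse1 peak held 0.20 and 0.17 in fed, 0.04 and 0.46 in fasted and 3.49 and 3.09 in leptin libraries. The Sv2b peak (chr7:75291692-75292573), in an intron of a synaptic vesicle protein gene, held 2.06 and 1.46, 1.98 and 2.02, and 5.02 and 4.78. In all 3 the leptin libraries were far above the rest, and in the first pair the other libraries were close to the floor of the assay, at 8 to 24 reads. The Ggt6 peak was the only promoter peak of the 10 (0.29 and 0.10 in fasted, 3.37 and 2.5 in leptin libraries), and the Epha4 peak, near a gene for an ephrin receptor, was the farthest from a start site at 379659 bases. None of the 7 nearest genes whose RNA was tested was called in the RNA of AgRP neurons between leptin and fasted. Over all genes 1.19% were called higher and 0.634% lower, so 7 genes may well hold no call.

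The leptin-opened peaks were distal. Introns held 621 of them (47.7%, against 42.3% of the other peaks) and intergenic DNA 610 (46.9% against 35.9%), while exons held 3.31% (9.28%) and promoters, taken as the 1000 bases before a start site, 27 peaks or 2.08% (12.5%). Their median distance to the nearest start site was 30772 bases, against 15490 for the other peaks. The peaks closed by leptin had much the same distribution (50.1% in introns, 44.2% intergenic, 2.37% in promoters), so distal position was shared by both directions of change. The leptin-opened peaks were spread over all autosomes and the X chromosome and lay nearest to 1092 genes, 926 of which had 1 such peak, 132 had 2, 28 had 3 and 6 had 4 or 5. Those 6 were Celf4, Cradd and Wdr25 with 5, and Ank3, Lclat1 and Pcdh7 with 4.

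The STAT motif TTCNNNGAA, which reads alike on both strands, was found in the central 300 bases of 501 of the 1301 leptin-opened peaks (38.5%, 95% Wilson interval 35.9% to 41.2%). It was found in 11.5% of the other peaks and in 11.5% of the peaks closed by leptin. The strict form TTCCNGGAA, a subset of it, was found in 15.8% of leptin-opened, 2.16% of other and 1.03% of leptin-closed peaks. Of the 592 STAT motifs in leptin-opened peaks, 32.4% were TTCCAGGAA and 19.9% TTCCCAGAA, on either strand, against 15.3% and 12.7% of the 9199 motifs in other peaks. In all, 423 leptin-opened peaks held 1 motif, 68 held 2 and 10 held at least 3. The intervals cover counting error only, and a match describes the sequence and not binding.

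The spacing of the motif made a difference to its share. With 2, 4 or 5 bases between TTC and GAA in place of 3, the shares were 12.6%, 7.99% and 9.15% in leptin-opened peaks and 8.15%, 7.71% and 8.19% in the other peaks. Base composition differed too, with a median GC of 45% in leptin-opened and 48.7% in other peaks, so the shares were also taken within bands of GC. Below 40% GC the STAT motif was in 44.2% of leptin-opened and 19.1% of other peaks, from 40% to 45% in 38.7% and 16.1%, from 45% to 50% in 37.9% and 12.8%, and from 50% in 33.3% and 6.84%. By position the shares were 37.7% and 12.3% in introns, 39.5% and 13.9% in intergenic DNA and 33.3% and 5.91% in promoters.

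The share with a STAT motif also rose with the size of the gain. It was 30.2%, 39.2%, 37.4% and 47.2% from the smallest to the largest gains when the leptin-opened peaks were cut into 4 equal parts. Over all peaks that moved by less than 0.5 between fed and fasted, it was 6.96% where leptin minus fasted lay between -0.25 and 0, 15.1% between 0.25 and 0.5 and 24.1% between 0.5 and 0.8, just below the limit. It then reached 33.8% between 0.8 and 1 and 61.7% (interval 50.8% to 71.6%) among the 81 peaks that gained 2 or more. Peaks just short of the rule were thus intermediate, and the limit of 0.8 cuts through a gradual change in composition.

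**Figure D2:**
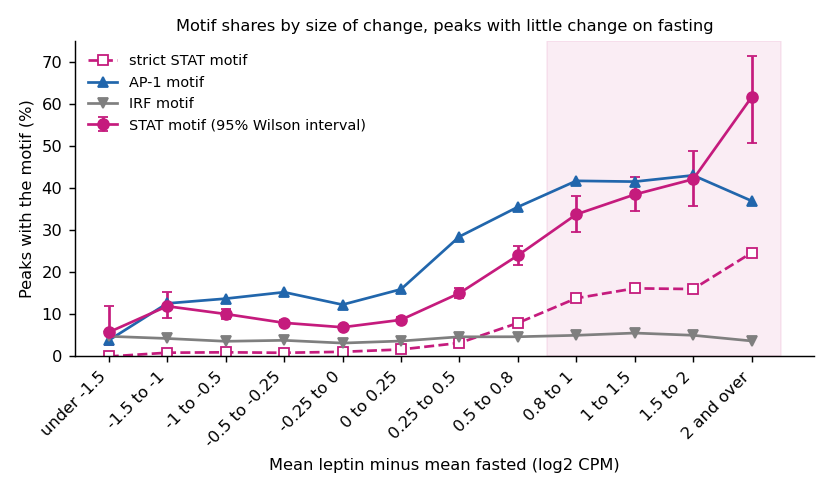
Percent of peaks with a STAT, strict STAT, AP-1 or IRF motif in the central 300 bases, by bins of mean leptin minus mean fasted log2 CPM, for peaks that moved by less than 0.5 between fed and fasted, with the bins from 0.8 shaded and bars for the 95% Wilson interval of the STAT share. The shaded bins hold the leptin-opened peaks and a few others whose lower leptin library did not exceed the higher fasted library. The STAT share rises from 6.96% just below 0 to 61.7% in the last bin, AP-1 levels off at about 40%, and IRF stays between 3% and 6%.

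The AP-1 motif TGANTCA, recognized by dimers of Fos and Jun proteins, was in 41.8% of leptin-opened, 30.1% of other and 12.2% of leptin-closed peaks. The other peaks include those that moved on fasting. Among peaks that moved by less than 0.5 between fed and fasted, AP-1 was in 12.3% where leptin minus fasted lay between -0.25 and 0. It was in 16.0% between 0 and 0.25. STAT or AP-1 was in 66.1% of leptin-opened, 37.8% of other and 22.5% of leptin-closed peaks, and both were in 14.2% of leptin-opened and 3.81% of other peaks. The IRF motif, bound by interferon regulatory factors such as IRF3, was in 5.23% (interval 4.14% to 6.57%) of leptin-opened, 3.94% of other and 4.02% of leptin-closed peaks. The steroid receptor motif GNACANNNTGTNC, bound by glucocorticoid and related receptors, was in 1.46% of leptin-opened and 2.34% of other peaks but in 8.15% of leptin-closed peaks. The cAMP response element TGACGTCA was in 0.154% of leptin-opened, 0.912% of other and 1.65% of leptin-closed peaks. The ETS motif CCGGAAGT was in 0.538%, 1.37% and 0.413% of them. The NR4A motif AAAGGTCA was in 2.08% of leptin-opened and 1.25% of other peaks, the FoxO motif GTAAACA in 4.61% and 4.40% and the C/EBP motif TTGCNNCAA in 2.31% and 2.14%. The NFI motif and the CTCF motif were in 1 leptin-opened peak each.

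Within the peaks, the STAT motif gathered at the centre. Per 100 leptin-opened peaks there were 4.92 STAT motifs in each of the windows of 25 bases on either side of the centre and 0.922 in the window from 500 to 475 bases before it. In the other peaks the same windows held 1.13, 1.11 and 0.712, and in the leptin-closed peaks 1.24, 1.24 and 0.826. Toward the flanks the leptin-opened peaks came closer to the other peaks but were above them in most windows, with 1.61 against 0.83 from 250 to 225 bases before the centre and 1.69 against 0.87 from 225 to 250 bases after it.

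**Figure D3:**
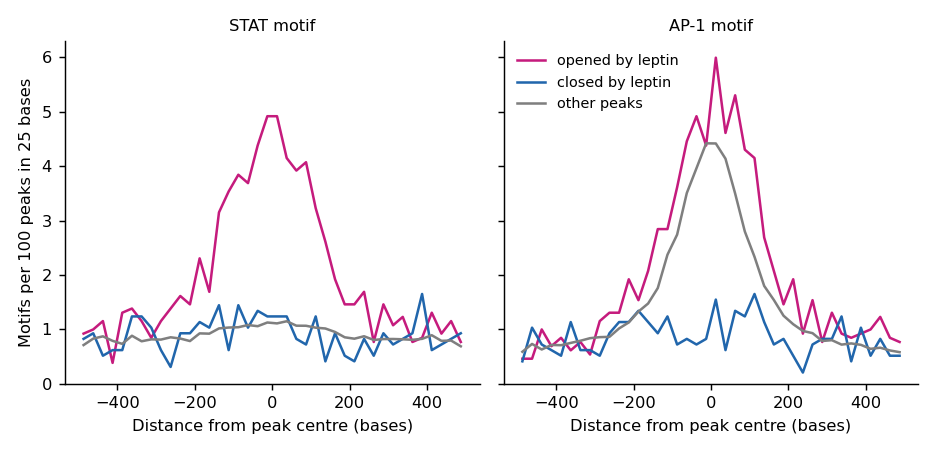
STAT motifs (left) and AP-1 motifs (right) per 100 peaks in windows of 25 bases, against the distance of the window from the peak centre in bases, for leptin-opened, leptin-closed and other peaks. The STAT line of the leptin-opened peaks rises to 4.92 at the centre while the other STAT lines stay close to 1, and AP-1 is centred in leptin-opened and other peaks but not in leptin-closed ones.

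Fewer leptin-opened than other peaks overlapped an IRF3 or CTCF CUT&RUN peak. An IRF3 CUT&RUN peak of the IRF3-2D model overlapped 39 of them by at least 1 base (3.00%, interval 2.20% to 4.07%), against 12.5% of the other peaks and 3.82% of the leptin-closed peaks. CTCF, an architectural protein of chromatin loops, overlapped 120 (9.22%), against 25.8% and 22.4%. Among intronic and intergenic peaks alone, a comparison chosen after seeing the data, IRF3 overlapped 3.01% of leptin-opened, 8.72% of other and 3.94% of leptin-closed peaks, and CTCF 9.34%, 23.0% and 22.8%. The shares of leptin-opened and leptin-closed peaks lay close together for IRF3, and for CTCF the leptin-opened share was the lower. With 1 CUT&RUN sample each, from fed mice, there is no replicate check and no value with leptin. The shares were not matched for accessibility, which was lower in leptin-opened than in other peaks (median mean of 1.98 against 2.48 log2 CPM).

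The 5 overlapping IRF3 peaks with the highest signal fell on leptin-opened peaks nearest to Vps50 (maximum signal 36), Gadd45g (31), 2010111I01Rik (30), Ctnnd2 (28) and Gabbr2 (25), where the median of the whole list was 17. The Vps50 peak (chr6:3620224-3621168) held 3.97 and 3.43 log2 CPM in fed, 3.38 and 3.08 in fasted and 5.0 and 4.61 in leptin libraries, and was the one of the 5 with an IRF motif. The Gadd45g peak, 2277 bases from the start site of a stress-response gene, held 1.48 and 1.18, 1.62 and 1.42, and 2.76 and 2.34. In both peaks the leptin libraries were the highest. None of these 5 peaks held a STAT motif. The Vps50 and Ctnnd2 peaks also overlapped a CTCF CUT&RUN peak, with fold enrichments of 13.6 and 6.29. Of the 5 genes, Gadd45g rose in RNA with leptin and the other 4 had log2 fold changes of 0.02 to 0.21 that did not pass the test.

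Sorted AgRP(+) and AgRP(-) nuclei, which took no part in the choice of the peaks, were compared with edgeR's quasi-likelihood test at the same thresholds. Of the 1301 leptin-opened peaks, 719 overlapped a peak of that table and 715 were tested. In fed, untreated mice 455 of the 715 were already more accessible in AgRP(+) nuclei (63.6%, interval 60.0% to 67.1%) and 18 were less accessible (2.52%), with a median log2 fold change of 1.54. Of the other peaks with a mean of at least 1 log2 CPM, 29.3% were higher and 8.85% lower in AgRP(+) nuclei, with a median of 0.15, and over all 66494 peaks tested the shares were 24.0% and 15.6%. The peaks closed by leptin were also mostly higher (55.3%, with 5.72% lower and a median of 1.25). A peak could be tested only if it had been called in these nuclei, which may favour peaks high in 1 population, and those tested were stronger (median mean of 2.56 log2 CPM against 1.47 in the rest), so the share says nothing of the untested peaks.

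The share was the higher one at each level of accessibility compared. For peaks with a mean of 1 to 1.5 log2 CPM, 21.3% of tested leptin-opened and 15.6% of other peaks were higher in AgRP(+) nuclei, from 1.5 to 2 the shares were 45.7% and 19.8%, from 2 to 3 they were 63.9% and 30.2%, and from 3 to 5 they were 82.4% and 41.3%. Within introns they were 62.2% and 36.9%, and in intergenic DNA 67% and 39.8%. Leptin-opened peaks with a STAT motif were higher in 73.2% of 276 cases and those without in 57.6% of 439. Without AgRP(-) replicate 2, 303 leptin-opened peaks were called higher in place of 455 and 11 lower, and without AgRP(-) replicate 1 there were 9 lower. Calls over all peaks dropped too, to 10761 higher and 6612 lower without the former library and to 10710 and 6081 without the latter. Scaling by library size moved the median of all peaks from -0.001 to 0.163 and the calls over all peaks from 15940 higher and 10383 lower to 18225 and 7296, but those among the leptin-opened peaks only to 492 and 14.

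**Figure D4:**
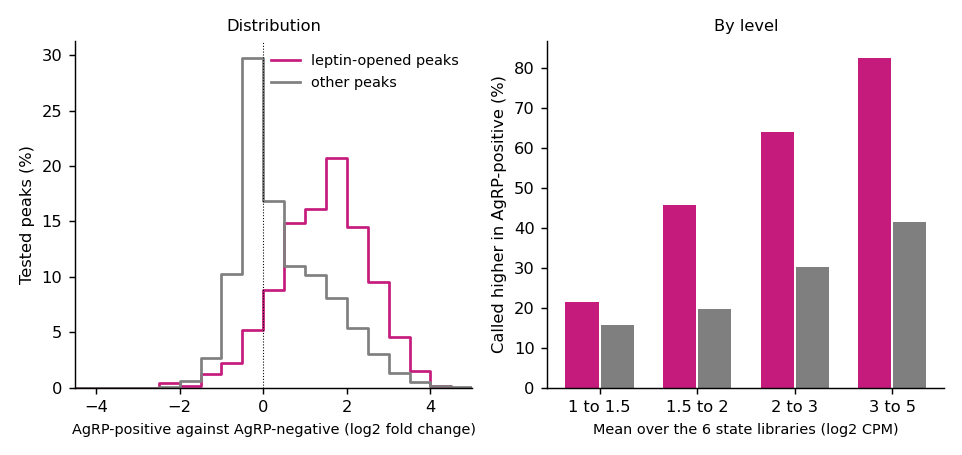
Left, the percent of tested peaks by log2 fold change between AgRP(+) and AgRP(-) nuclei of fed mice for leptin-opened and other peaks; right, the percent called higher in AgRP(+) nuclei by mean log2 CPM over the state libraries (leptin-opened in magenta, other in grey). The leptin-opened peaks center on 1.54 and the others near 0.15, and the share called higher is larger in each band, from 21.3% against 15.6% to 82.4% against 41.3%.

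The largest differences belonged to peaks 73450 to 874609 bases from a start site. The peak nearest to Plod2, a collagen lysyl hydroxylase gene 242483 bases away, held 28 and 17.4 CPM in AgRP(+) and 1.48 and 0.829 CPM in AgRP(-) nuclei, a log2 fold change of 4.29 (SE 0.34, adjusted p = 2.49e-34). The peaks nearest to Ghitm, Wwox, Glra2 and Iqcm followed with 3.95, 3.91, 3.89 and 3.70. All 5 were called, 4 of them held a STAT motif, and the Glra2 peak (chrX:165400459-165401227), near a glycine receptor subunit gene, held 3 of them. In that peak the state libraries held 1.34 and 0.93 log2 CPM in fed, 0.94 and 0.81 in fasted and 3.29 and 3.28 in leptin mice. At the other end were peaks nearest to Ankrd54 (-2.20), Mfsd6 (-2.16), Nampt (-2.10), Tub (-1.69) and Tenm4 (-1.42), of which the latter 4 lost the call when 1 library was left out. The Tub peak, in a gene whose loss causes late obesity in mice, gained with leptin (0.89 and 1.09 in fasted, 3.39 and 3.49 in leptin libraries) although AgRP(-) nuclei had the higher values, 2.59 and 6.28 CPM against 1.16 and 1.58.

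RNA of AgRP neurons was then read for the gene whose start site lay nearest to each peak. Of the 1092 genes, 868 passed a mean of 1 CPM and entered edgeR's quasi-likelihood test with Benjamini-Hochberg adjustment over 13399 genes. Between leptin and fasted, 31 rose (3.57%) and 9 fell (1.04%), against 1.19% and 0.634% of all genes tested, and the median log2 fold change was 0.05 against -0.01 over all genes. Of the genes nearest to leptin-closed peaks, 1.49% rose and 2.99% fell. For most genes next to a leptin-opened peak no change in RNA was called. With the replicate number as a block, 52 of these genes rose and 9 fell, of 242 and 148 over all genes. Without fasted replicate 1 the number that rose was 20, of 125 over all genes in place of 160. Without the 3 libraries numbered 4, an alternative chosen after seeing the data, 53 rose and 9 fell, of 235 and 96 over all genes, and 39 of the 40 called genes kept their call, all but Myo1e.

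Socs3 had the largest rise. Its RNA was 9.06, 13.0 and 5.89 CPM in the fed libraries, 2.72, 2.55, 2.40 and 1.79 in the fasted and 35.7, 30.7, 35.5 and 23.9 in the leptin libraries. The groups did not overlap, and leptin exceeded the fed level as well as the fasted. The log2 fold change was 3.73 (SE 0.25, adjusted p = 3.63e-05) against fasted, and fasting had lowered it by a log2 fold change of -1.98 (adjusted p = 0.0017). The leptin-opened peak next to Socs3, at 1.58 and 1.52 mean log2 CPM in fed and fasted mice, had been chosen for a small difference between these states. Both contrasts share the fasted libraries.

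Drd1, the dopamine D1 receptor gene, had 2 leptin-opened peaks. Its RNA was 13.5, 14.2 and 10.6 CPM in fed, 6.94, 7.17, 4.82 and 5.59 in fasted and 43.5, 35, 38 and 32.7 in leptin libraries, with no overlap (log2 fold change 2.60, SE 0.16, adjusted p = 2.02e-05). One peak was at the promoter, 165 bases from the start site (chr13:54054966-54056020), with 3.81 and 3.84 log2 CPM in fasted and 4.70 and 4.59 in leptin libraries. The other lay 228634 bases away (chr13:53825729-53826562) and held 3.04 and 3.06 in fed, 3.21 and 3.73 in fasted and 5.13 and 5.14 in leptin libraries. The distal peak had the larger gain (1.67 against 0.82) and a log2 fold change between AgRP(+) and AgRP(-) nuclei of 2.39 against 0.64. Neither held a STAT motif.

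Among secreted and surface proteins, Tnfrsf11b, which encodes the decoy receptor osteoprotegerin, had 3.56, 3.09 and 2.76 CPM in fed, 1.30, 1.25, 1.31 and 0.731 in fasted and 9.23, 7.08, 6.64 and 5.68 in leptin libraries. All leptin libraries were above all others (log2 fold change 2.62, SE 0.21, adjusted p = 0.000114). Serpina3i, a serine protease inhibitor gene, held 6.76, 4.54, 4.79 and 6.33 in fasted and 34.1, 31.8, 42.0 and 29.5 in leptin libraries (2.62, SE 0.19, adjusted p = 6.3e-05), although it belongs to a family of near-identical copies between which reads could be split. Cd24a, a small surface glycoprotein gene, had 3 leptin-opened peaks at 109252 to 143402 bases, none with a STAT motif and all 3 higher in AgRP(+) nuclei, and its RNA went from 49.9, 30.2, 30.8 and 48.6 CPM in fasted to 136, 99.1, 158 and 106 in leptin libraries (1.65, SE 0.21, adjusted p = 0.00194). The receptor genes Il1r1 (1.03), Mc3r (0.76) and Tnfrsf1a (0.55), for interleukin 1, melanocortins and tumour necrosis factor, rose as well. Mc3r lost its call without any 1 of 5 libraries and with library size scaling.

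Other genes among the 31 were named after their values were seen and stand for no tested group. Etv6, an ETS family repressor, held 13.6, 12.1, 11.5 and 16.3 CPM in fasted and 43.5, 34.5, 34.2 and 36.6 in leptin libraries, with no overlap (log2 fold change 1.48, SE 0.14, adjusted p = 0.00031). Its leptin-opened peak, in an intron, held 3 AP-1 motifs and no STAT motif. Bcl3, a nuclear member of the IκB family, had 2 leptin-opened peaks, at 89 and 1547 bases from the start site, and its RNA rose by a log2 fold change of 1.29 (adjusted p = 0.0263), a call that was lost without any 1 of 5 libraries and with library size scaling. Ikzf4 (0.93), Arid5b (0.79), Bhlhe41 (0.78), which encode DNA-binding proteins, and the aryl hydrocarbon receptor gene Ahr (0.63) rose too.

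The genes of the glycan-branching transferase Gcnt2 (log2 fold change 1.51) and of the Golgi mannosidases Man2a1 (1.26) and Man1a (0.93) rose as well. Man2a1 had 3 intronic leptin-opened peaks, 1 with a strict STAT motif and the other two with AP-1 motifs, and its RNA went from 27.8, 25, 22.7 and 32.1 CPM in fasted to 81.4, 55.8, 64.6 and 55.5 in leptin libraries (SE 0.14, adjusted p = 0.000757). Arhgap28 (1.87), Cpne8 (1.77, a copine that binds membranes in response to calcium), Steap1 (1.76), Nedd9 (1.36) and the neuronal pentraxin gene Nptx2 (1.33) also rose. In all 31 genes the leptin and fasted libraries did not overlap, as in the 9 that fell. The call on the same libraries favours such separation, and its share over all genes was not taken, so nothing is read from it. Leaving out 1 library at a time, 26 of the 40 called genes kept their call throughout, and the exceptions were Adam12, Ahr, Ajap1, Arid5b, Bcl3, Cemip, Hhip, Ikzf4, Man1a, Map3k1, Mc3r, Myo1e, Nptx2 and Osbpl3.

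The 9 genes that fell did so next to peaks that had opened. Fam107b held 59.4, 68.0 and 44.7 CPM in fed, 134, 112, 138.5 and 138.5 in fasted and 46.9, 45.2, 48.6 and 36.2 in leptin libraries, a log2 fold change of -1.56 (SE 0.14, adjusted p = 0.000253). The leptin libraries lay below all fasted ones and overlapped the fed ones. Its peak, 26342 bases away, held 3.53 and 3.70 log2 CPM in fasted and 4.63 and 4.56 in leptin libraries, with no STAT or AP-1 motif. Hhip (-1.30, which encodes an inhibitor of hedgehog signalling), Lrrc1 (-1.29), Cited2 (-0.99), Nfkbiz (-0.92), the ephrin ligand gene Efnb2 (-0.71), Rtl1 (-0.63) and the potassium channel gene Kcna5 (-0.56) were also among them. Of the 9 peaks at these genes, 5 lay over 100 kb away and 5 held a STAT motif.

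**Figure D5:**
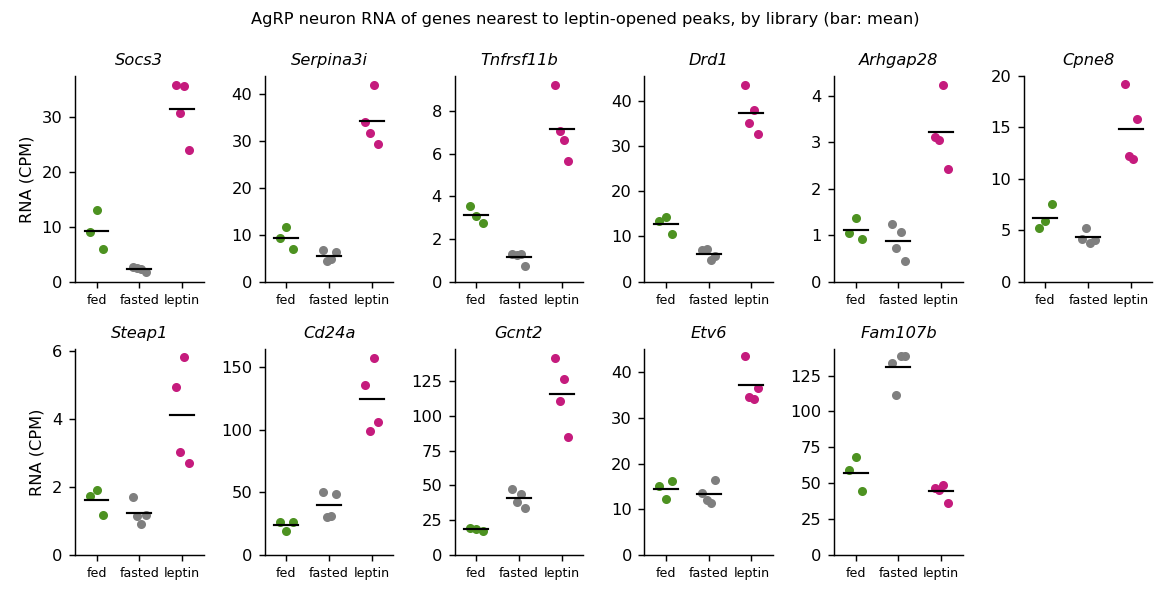
RNA of AgRP neurons in CPM for 11 genes nearest to leptin-opened peaks with large called changes between leptin and fasted, with 1 point per library (3 fed, 4 fasted, 4 leptin) and a bar for the mean. The leptin points lie above all fasted points in 10 genes, as with 23.9 to 35.7 CPM against 1.79 to 2.72 for Socs3, and below them in Fam107b.

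The share of genes that rose was similar with and without the motif. Of genes with a STAT motif in a leptin-opened peak, 12 of 361 rose (3.32%, interval 1.91% to 5.71%), and of those without, 19 of 507 (3.75%, interval 2.41% to 5.77%). It was 19 of 555 (3.42%) for peaks within 50 kb and 12 of 313 (3.83%) for genes whose peaks all lay farther away. Of genes with 2 or more leptin-opened peaks, 9 of 151 rose (5.96%, interval 3.17% to 10.9%) and none fell. Turned around, a leptin-opened peak lay within 200 kb of the start site of 63 of the 156 genes that rose (40.4%, interval 33.0% to 48.2%), 13 of the 82 that fell (15.9%) and 22.0% of the genes not called. A leptin-closed peak lay within that distance of 13.5%, 42.7% and 17.7% of them.

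Between fasted and fed, where the peaks had been required to stay within 0.5, 27 of the 868 nearest genes rose (3.11%) and 14 fell (1.61%), against 2.81% and 1.07% of all genes. Blocking on the replicate number gave 47 and 27, of 590 and 340 over all genes, and library size scaling 13 and 12, of 148 and 90. Without fasted replicate 4, 26 fell, of 236 over all genes in place of 143. Without the 3 libraries numbered 4, 36 rose and 35 fell, of 403 and 305. Hhip (log2 fold change 2.44), Nfkbiz (1.97), Gm1123 (1.49) and Ecm1 (1.36) had the largest rises, and Socs3 (-1.98) and Tnfrsf11b (-1.43) the largest falls. Hhip held 26.9, 20.3 and 30.2 CPM in fed, 176, 145, 140 and 102 in fasted and 52.5, 42.6, 92.4 and 41.4 in leptin libraries. Its leptin-opened peak, 108818 bases away, held 2.11 and 1.13 log2 CPM in fed, 2.18 and 1.09 in fasted and 2.72 and 2.74 in leptin libraries, a level course between fed and fasted and a gain with leptin that the rule required of every peak.

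Of the leptin and STAT3 list (29 genes tested, 9 higher and 0 lower with leptin), Socs3, Bcl3, Osmr and Lepr were nearest to 5 leptin-opened peaks, and 9 genes of the list had such a peak within 200 kb, where the shares over all tested genes were 7.09% and 22.2%. The Osmr peak (chr15:6912424-6913086), near the oncostatin M receptor gene, held 0.79 and 1.52 log2 CPM in fasted and 3.07 and 3.26 in leptin libraries, with 2 STAT motifs. Osmr RNA was 2.05, 3.44, 1.81 and 2.16 CPM in fasted and 4.97, 3.94, 4.68 and 4.92 in leptin libraries, which do not overlap, but the change of 0.96 did not pass the test (adjusted p = 0.0728). At Lepr the peak held 0.99 and 0.65 in fasted and 1.98 and 1.77 in leptin libraries, and the RNA differed by 0.01 (adjusted p = 1).

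Of the AgRP neuron list (20 genes, 6 higher and 1 lower with leptin), Serpina3i, Mc3r, Lepr, Npy2r, Corin and Gad2 were nearest to a leptin-opened peak and none of these 6 peaks held a STAT motif. The Npy2r peak, 84240 bases from the gene of a neuropeptide Y receptor, held 1.61 and 1.6 log2 CPM in fed, 0.89 and 1.39 in fasted and 3.01 and 2.89 in leptin libraries. Its RNA differed by 0.19 between leptin and fasted and did not pass the test. Of the feeding peptide receptors (23 tested, 2 higher and 2 lower), Lepr, Mc3r, Npy2r, Oprl1 and Drd1 were nearest to such a peak. Of the interferon list (22 tested, 2 higher and 0 lower), which holds the genes around IRF3, Ikbke, a kinase that activates IRF3, and Tlr4 were, and of the immediate early genes (18 tested, 2 higher and 4 lower) Myc was. Ikbke was not among the genes tested in RNA, and the paper reports its product, IKKε, as not expressed in AgRP neurons. Within 200 kb of a leptin-opened peak lay 12 genes of the AgRP neuron list, 9 of the feeding peptide receptors, 6 of the interferon list (Irf3, Irf4, Irf7, Stat2, Ikbke and Ifih1) and 2 immediate early genes (Jund and Ier2). The 12 include Serpina3c, Serpina3g, Serpina3i and Serpina3n of 1 family, and neighbouring genes can share a peak. Of 17 genes that the study names as induced by leptin, a list chosen on these samples, 8 were nearest to 12 leptin-opened peaks. Of all 17, 11 were called higher here, and of those 8, 6 were. Among the 6 were Man1a, Man2a1 and Bhlhe41 but not Abca1 (0.94, adjusted p = 0.162, although called without the libraries numbered 4) or Kcng1 (0.50, adjusted p = 0.251).

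In POMC neurons, which also respond to leptin, edgeR called 0 of 866 genes nearest to leptin-opened peaks higher and 0 lower between leptin and fasted, as for all 13416 genes tested (0% and 0%). At an unadjusted p under 0.05 there were 21 of the 866 and 151 of all genes. DESeq2 called 3 of the 866 higher (Socs3, Etv6 and Rnd3) and 0 lower, where it called 9 higher and 1 lower over all genes. With the replicate block edgeR called 7 higher and 1 lower over all genes, among them Socs3 (adjusted p = 0.00187), Etv6 (0.0149) and Nptx2 (0.0177). Socs3 was 1.44 and 1.61 CPM in fasted and 12.4 and 9.02 in leptin libraries of POMC neurons, a log2 fold change of 2.82. Of the 31 genes that rose in AgRP neurons, 30 were measured in POMC neurons, and 28 of these had a log2 fold change above 0, with a median of 0.43 and a range of -0.16 to 2.82. The median over all 13416 genes was 0.002, and the share of all genes above 0 was not taken. The difference between the neurons was not tested.

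No gene of the 9 marker lists, from astrocytes to endothelium, was called between leptin and fasted in the RNA of AgRP neurons. Over all genes 1.19% were called higher and 0.634% lower, so lists of 1 to 8 genes may well hold no call. Leptin-opened peaks lay nearest to the markers Gja1 (astrocytes, 2 peaks), P2ry12 (microglia), Col23a1 (tanycytes), Slc17a6 (glutamatergic neurons) and Corin (AgRP neurons). The high astrocyte level of the libraries numbered 4 occurred in all 3 states.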

How the data were processed

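The authors aligned reads to mm10 with Bowtie2 (ATAC-seq) or HISAT2 (RNA), called peaks with MACS2, summed coverage with bedtools and counted genes with featureCounts of Subread, per the submitters' processing notes and the methods of the study. Raw counts per peak and per gene were deposited by the authors, as was a table of log2 CPM per peak made with edgeR. That log2 CPM table chose the members. The IRF3 list, as deposited, gives the signal per SEACR peak, and the CTCF list, as deposited, the fold enrichment per peak. Versions and the prior count are not given in the sources used here.

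Members, gene lists and motifs were chosen with earlier results of these data known. Counts were fitted in R 4.3.3 with edgeR 4.0.16 (TMM, quasi-likelihood, mean CPM over 1, FDR under 0.05 and absolute log2 fold change over 0.5, the thresholds of the study), 1 model for the 3 states of each neuron and 1 for the sorted nuclei, and tested on simulated data first. Standard errors come from the F statistic. Peaks were matched with bedtools 2.31.1 and motifs with Python 3.11.15. DESeq2 1.42.0, other scalings and filters, a replicate block and single libraries left out were alternatives. Same-numbered AgRP RNA libraries deviated together (correlations of 0.535 to 0.814 in 10 pairs, against -0.643 to 0.642 in 30 others), as did those of POMC neurons (0.734 to 0.771), and the sorted nuclei share pools (0.0989), so blocked values are given where they change a result. Intervals cover counting error only. Named members were the 10 largest gains, members at called genes (12 for leptin, 6 for fasting), list genes and genes the study names as leptin-induced, the strongest 5 by IRF3 signal, the 5 highest and 5 lowest in sorted nuclei, and 3 on each side of the limit. Other genes called in RNA were named after their values were seen. Whole ARC RNA, IgG and cerebellum samples were not analysed here, and 1 named gene and 1 sequence are not reported here.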

Additional observations from a re-analysis of the deposited data

Results flagged for a closer look

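Within groups of 4 RNA libraries of AgRP neurons, single libraries stood apart by Dixon's criterion (a gap over 0.829 of the range) in 8 of 150 groups examined, and chance alone picks out about 1 group in 20. Nanos1, which rose with leptin, held 120 CPM in fasted replicate 4 against 69.7 to 74.7 in the other fasted libraries, and Arid5b held 91.9 there against 57.3 to 59.3. The same library was the highest for Abca1 (89.0 CPM against 38.9 to 44.0) and Gad2 (1158 CPM against 726 to 775) and the lowest for Tnfrsf11b (0.731 CPM against 1.25 to 1.31). Fasted replicate 4 was also the fasted library with the most astrocyte marker RNA (28194 CPM), whose part in these values was not tested. Leptin replicate 3 was the highest leptin library for Hspb8 (63.9 CPM) and Ncoa2 (613 CPM), and leptin replicate 2 for Myo16 (37.5 CPM). Every gene examined had been taken as nearest to a leptin-opened peak, so this trait does not set the 8 apart.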

How the results depend on the processing

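No called gene or peak named here changed direction under any alternative run, while medians over all genes or peaks, which lie near 0, could change sign. The number of members was 847 with a limit of 1.0 on the gain, 786 with a limit of 0.3 between fasted and fed, 1978 with a minimum mean of 0, and 1206 to 1670 without 1 library. The STAT share was 50.5% over whole peaks and, with 2, 4 or 5 bases between TTC and GAA (chosen after seeing the data), 12.6%, 7.99% and 9.15%. Requiring an overlap of at least 50% of the peak left 0.461% for IRF3 and 1.61% for CTCF, and the upper 50% of the IRF3 list by signal left 1.69%. In sorted nuclei, 303 to 439 peaks were higher and 9 to 15 lower without 1 library.

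With any gene within 200 kb in place of the nearest, 63 genes rose with leptin, and 69 rose and 35 fell on fasting. With the replicate number as a block, 52 rose with leptin, and 47 rose and 27 fell on fasting, and with library size scaling 13 rose on fasting. In POMC neurons DESeq2 and the block each called 3 genes higher, and 0 were called without 1 library. Without 1 library, 20 to 44 genes rose and 8 to 9 fell with leptin, and 18 to 35 rose and 10 to 26 fell on fasting. Without the 3 libraries numbered 4 (chosen after seeing the data), 53 rose with leptin and 35 fell on fasting. Of the 40 genes called with leptin, the block and DESeq2 kept all 40 and library size scaling 33 (lost: Ahr, Bcl3, Kcna5, Mc3r, Myo1e, Rtl1, Tnfrsf1a). Blocking moved no count in sorted nuclei by over 1.5 times. The cause of these changes was not tested. With 2 ATAC-seq libraries per state, the weakest peaks rest on few reads.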

Other observations

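At Ank3, which encodes ankyrin-G of the axon initial segment, 4 intronic leptin-opened peaks gained 0.95 to 1.55 log2 CPM, 3 of them with an AP-1 motif and none with a STAT motif.

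Among genes that fell with leptin, Efnb2 held 101, 93.9 and 92.3 CPM in fed, 161, 133, 152 and 151 in fasted and 100.1, 83.6, 95.1 and 87.2 in leptin libraries. The fasted libraries were the highest and the fed and leptin ranges overlapped.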
